A study of Mus musculus with 6 samples.

Results

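The circRNA probes described here read signal in both states of a muscle cell line and were at least 4-fold brighter in myotubes than in myoblasts. Of 14236 circRNA probes on the array, 7717 were called well above background on all 6 arrays, and 74 of these were members. They were chosen by their processed signal on all 6 arrays. A member had a mean log2 signal over the 3 myotube arrays at least 2 above its mean over the 3 myoblast arrays. Each array was first set relative to the 75th percentile of its circRNA probes, and the 100 brightest probes were left out. That last step removed none, since 74 probes reached a difference of 2 before it. They make up 0.959% of the 7717, and 59 probes (0.765%) lay at -2 or below. The contrast between the states chose the members, so their differences are described without a test.

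C2C12, a clonal line of mouse muscle precursors, was the only cell source. The myoblast group held 3 samples grown in high-glucose medium with 10% fetal bovine serum. The myotube group held 3 samples of the same line that had been moved to 2% horse serum at near confluence, and no genetic change or drug separates the groups. The sources used here do not give the days in horse serum. RNA of each sample was labelled with Cy3 and read on 1 array of the Arraystar mouse circRNA design. The study describes 3 independent experiments per group. Differentiated C2C12 cultures commonly keep unfused cells, and in RNA from a whole culture more cells of a kind and more RNA per cell cannot be told apart.

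Circular RNAs (circRNAs) are closed loops, most of them made when a downstream splice donor joins an upstream splice acceptor. Without free ends they resist exonucleases and often outlast the linear RNA of the same gene. When serum is lowered, C2C12 cells leave the cell cycle, fuse and build contractile protein, and some circRNAs have been tied to both the growth and the fusion of myoblasts. A probe here stands for 1 circRNA of the array design and has 1 spot per array. The files used here pair no probe with a sequence, a host gene or a genome position, so members are given by probe identifier and no role is attached to them.

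All 6 arrays had 1 scan time. Their positions in the file headers were taken as rows and columns of 1 slide, and no slide identifier was read. By these positions, myotube 1 shared the first slide row with the 3 myoblast arrays. Myotubes 2 and 3 lay in the second row. The 75th percentile of the circRNA signal was 30.1 to 36.4 on the myoblast arrays, 37.6 on myotube 1, and 53.3 and 55.0 on myotubes 2 and 3. Signals below are the scanner software's processed signal, in linear intensity units and before scaling, while differences are in log2 after scaling. Of 25 marker genes looked up, 2 had a gene probe, so the cell type could be checked on these alone. Hspb7, a small heat shock protein found in striated muscle, had signals of 9.12, 9.78 and 15.5 in myoblasts and 71.5, 75.8 and 162 in myotubes, with no overlap (log2 difference 2.57). E2f1, which drives genes of DNA replication, read 11.2 to 12.7 in myoblasts and 11.4 to 12.4 in myotubes, a difference of -0.54 after scaling. Only 1 of 10 listed genes of muscle differentiation and 1 of 4 of dividing cells were thus read. Myog and Myh3, and the 3 listed markers of myoblasts, 3 of fibroblasts, 3 of fat and 2 of bone, were not among the gene probes that could be named, so other cell types were not tested.

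In myoblasts the members were somewhat dimmer than the other detected circRNAs by median, and in myotubes brighter. Their mean signal in myoblasts ran from 5.67 to 238 with a median of 22.0, against a median of 29.1 for the other probes above background on all arrays. In myotubes it ran from 40.7 to 2769 with a median of 183, against 42.3 for the others. The median member thus stood at percentile 40.9 of the 7717 probes in myoblasts and at percentile 84.2 in myotubes. Array by array, the median signal of the members was 18.7, 23.7 and 19.1 in myoblasts and 146, 207 and 211 in myotubes. All 3 myotube arrays stood above all 3 myoblast arrays in this value. Nothing is read from this, since the same arrays chose the members and these signals are unscaled.

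Even so the members were a small part of the circRNA signal. Their share of it was 0.129%, 0.117% and 0.105% in the 3 myoblast samples and 1.09%, 0.904% and 0.902% in the 3 myotube samples. On average this was 0.117% ± 0.0122 against 0.964% ± 0.106 (SD, n = 3 each). A single member, ASCRP4003543, gave much of the higher share on myotube 1. Without it the myotube samples gave 0.772%, 0.872% and 0.872%, and the myoblast samples 0.120%, 0.103% and 0.0971%.

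Most members lay not far above the bound. The median difference was 2.35, a 5.10-fold ratio, where the median over all 7717 probes was -0.07. The difference lay between 2 and 2.5 for 42 members and between 2.5 and 3 for 21, and 11 reached 8-fold and 5 reached 16-fold. In the authors' deposited values 5 reached 8-fold and 1, ASCRP4004827, reached 16-fold, and after normexp, a model-based background correction, 1 reached 8-fold, the same probe. Because the 75th percentile was itself 0.53 higher (log2) on the myotube arrays, the unscaled signal of the median member was 7.38-fold higher, a log2 difference of 2.88. Over all 7717 probes the unscaled median difference was 0.46.

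Just inside the bound were ASCRP4004868, ASCRP4013636 and ASCRP4001910, with differences of 2.0090, 2.0123 and 2.0148. Just outside it were ASCRP4013722, ASCRP4012448 and ASCRP4000192, with 1.9999, 1.9876 and 1.9652. Their standard errors of 0.15 to 0.32 are many times wider than these steps, so the bound separates probes that the arrays do not. A bound of 1.5 in its place would take in 185 probes, and one of 2.5 would keep 32.

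ASCRP4004827 had the greatest difference of all. Its signal was 8.09, 8.58 and 7.84 in myoblasts and 574, 721 and 586 in myotubes. Every myotube array was thus far above every myoblast array, and the myoblast arrays stayed within 1 unit of each other. The ratio was 52.8-fold (log2 difference 5.72, SE 0.18), and leaving out any 1 array moved the difference between 5.61 and 5.87. It was 4.53 in the authors' deposited values and 3.24 after normexp. The scanner's own error for the 3 myoblast spots was 1.25 to 1.31 units.

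Next came 4 members with an equally low mean in myoblasts, from 7.95 to 8.88, and a mean of 214 to 378 in myotubes. ASCRP4001861 had signals of 6.59, 9.68 and 9.09 in myoblasts and 169.9, 488 and 477 in myotubes, a 28.2-fold ratio (log2 difference 4.82, SE 0.28). Its myotube 1 value was the lowest of the myotube arrays, and all 3 were well above the myoblast arrays. For ASCRP4002121 the signals were 6.97, 11.3 and 5.57 against 251, 353 and 314, a 27.5-fold ratio (log2 difference 4.78, SE 0.21). The myotube arrays were close to each other after scaling, and the spread lay in the dim myoblast arrays. ASCRP4007505 read 9.95, 7.65 and 8.16 in myoblasts and 185, 308 and 271 in myotubes, a 20.2-fold ratio (log2 difference 4.33, SE 0.18). ASCRP4007350 read 6.91, 11.2 and 8.56 against 166, 238 and 237, a 16.7-fold ratio (log2 difference 4.07, SE 0.18). After scaling, its myotube arrays had an SD of 0.03. For ASCRP4001861, ASCRP4002121, ASCRP4007505 and ASCRP4007350 the log2 difference in the authors' deposited values was 3.62, 3.65, 3.21 and 2.95, and after normexp it was 2.44, 2.37, 2.07 and 1.88.

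A few more exceeded 8-fold. ASCRP4007352, whose identifier lies 2 after that of ASCRP4007350, read 10.00, 10.9 and 9.45 in myoblasts and 133, 231 and 188 in myotubes (12.3-fold, log2 difference 3.62, SE 0.16). ASCRP4007351, the probe numbered between them, was no member: it read 233, 281 and 218 in myoblasts and 407, 637 and 518 in myotubes, with a difference of 0.55. ASCRP4003093 started brighter than these, at 25.5, 31.6 and 23.0 in myoblasts, and read 243, 601 and 610.5 in myotubes (11.7-fold, log2 difference 3.54, SE 0.23). Its groups were far apart, with myotube 1 nearest to the myoblasts. ASCRP4012801 read 7.14, 9.78 and 5.87 against 76.0, 104 and 129.6 (9.38-fold, log2 difference 3.23, SE 0.18). The authors' deposited values gave log2 differences of 2.58, 3.04 and 2.17 for ASCRP4007352, ASCRP4003093 and ASCRP4012801, and normexp gave 1.64, 2.41 and 1.15.

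The members differed in how much signal there was to measure in myoblasts. A mean myoblast signal under 10 was found for 16 members (21.6%), one of 10 to 50 for 45 and one over 50 for 13. Among the other probes above background on all arrays, 12.1% lay under 10 and 34.6% over 50. Members were 1.70% of all probes under 10, 1.09% of those from 10 to 50 and 0.490% of those over 50. The median difference in these classes was 2.83, 2.29 and 2.52. Scanner error came to 16.1% of the myoblast signal in the dimmest class and to 10.1% in the brightest (medians), and to 10.0% or 10.1% in myotubes in every class.

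The dimmest members sat close to the edge of detection. On the 3 myoblast arrays the lowest circRNA signals called above background were 4.30, 4.38 and 4.55, and the highest signals not so called were 6.43, 7.05 and 8.59. Of the members, 2 lay below those upper values on all 3 myoblast arrays and 20 on at least 1. The brightest of 15 negative probes had a mean of 6.30 in myoblasts and 7.57 in myotubes, and 26 members were under 2 times that in myoblasts. These counts were made for the members alone, so they do not show whether members lay nearer to this edge than other probes. The ratio of a member with so low a myoblast signal rests on a denominator near these readings.

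ASCRP4000690 had the lowest myoblast signal of all members, at 5.38, 6.32 and 5.32, and 33.5, 36.1 and 52.5 in myotubes (4.87-fold, log2 difference 2.28, SE 0.18). It was the 1 member dimmer in myoblasts than the brightest negative probe. ASCRP4008366 read 6.67, 5.63 and 6.60 in myoblasts and 59.8, 72.6 and 88.8 in myotubes (8.01-fold, log2 difference 3.00, SE 0.18). Its myoblast mean of 6.30 equalled that of the brightest negative probe as rounded. ASCRP4001682 read 7.32, 8.0 and 5.60 against 31.4, 46.8 and 55.4 (4.34-fold, log2 difference 2.12, SE 0.16). In all 3 the myotube arrays lay wholly above the myoblast arrays, by 1.92 to 2.64 on the log2 scale. Their log2 differences were 1.19, 1.87 and 1.1 in the authors' deposited values and 0.44, 0.86 and 0.44 after normexp.

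At the other end, 13 members had a mean signal over 50 in myoblasts. ASCRP4001750 read 213, 117 and 127 in myoblasts and 1505, 1376 and 2775 in myotubes, an 8.43-fold ratio (log2 difference 3.08, SE 0.29). It combined a bright signal in both states with 1 of the larger differences, and myotube 3 stood above the other myotube arrays. Before scaling, ASCRP4008439 had the closest myoblast signals of the bright members, at 56.9, 57.6 and 59.0. It read 533, 651 and 626 in myotubes (7.18-fold, log2 difference 2.84, SE 0.17). After scaling its log2 SD in myoblasts was 0.15, and other bright members had less. ASCRP4013862 read 99.1, 82.9 and 93.6 against 745, 1081 and 836 (6.61-fold, log2 difference 2.72, SE 0.19). Neither pair of groups came near to overlapping.

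Both ASCRP4004318 and ASCRP4010324 were lowest on myotube 1 among the myotube arrays. The former read 52.0, 55.4 and 83.2 in myoblasts and 330.4, 678 and 780.3 in myotubes (6.22-fold, log2 difference 2.64, SE 0.26). The latter read 90.5, 81.4 and 126 against 566, 1051 and 1134 (6.21-fold, log2 difference 2.64, SE 0.24). In each, myoblast 3 was the brightest myoblast array and still lay well below myotube 1.

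ASCRP4004983 read 53.1, 60.7 and 61.9 in myoblasts and 468, 522 and 498 in myotubes, a 5.86-fold ratio (log2 difference 2.55, SE 0.19). ASCRP4008913, at 65.0, 78.3 and 58.6 against 473, 603 and 599, came close to it (5.74-fold, log2 difference 2.52, SE 0.16). Both were fairly even within each state before scaling. After it, the log2 SD in myoblasts and myotubes was 0.19 and 0.24 for ASCRP4004983, and 0.08 and 0.11 for ASCRP4008913. ASCRP4002524 was more uneven in myoblasts, at 70.3, 134 and 91.3, and read 556, 908 and 786 in myotubes (5.34-fold, log2 difference 2.42, SE 0.21). ASCRP4001455 read 122, 162 and 117 against 754, 915 and 1021 (4.65-fold, log2 difference 2.22, SE 0.16). It was the fourth brightest member by the average of the states, and leaving out any 1 array kept its difference between 2.16 and 2.30.

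The remaining bright members lay near the bound. ASCRP4010700 read 58.2, 72.6 and 62.6 in myoblasts and 341, 481 and 467 in myotubes (4.57-fold, log2 difference 2.19, SE 0.16). ASCRP4012507 read 58.4, 92.4 and 77.1 against 394, 474 and 482 (4.15-fold, log2 difference 2.05, SE 0.19). Their groups were apart by 2.03 and 1.77 on the log2 scale.

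In ASCRP4003543, the brightest member by the average of the states, 1 array made the difference. Its signal was 195, 345 and 173 in myoblasts and 6667, 823 and 817 in myotubes, so myotube 1 stood far above the other myotube arrays, which were nearly equal. The spot on myotube 1 carried the scanner software's flag for non-uniform pixels, the only such flag among the 444 spots of the members. Its median pixel intensity was 1194, against 819 and 866 on myotubes 2 and 3. The log2 difference was 2.33 (SE 0.77) with this spot and 1.15 without it. With median pixel intensities it was 1.5, so ASCRP4003543 was no member by either. Its groups still did not overlap, but by the smallest gap of all members, 0.65.

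ASCRP4006334 had 1 myoblast array apart from the others. It read 436, 133 and 127 in myoblasts and 1433, 1314 and 1492 in myotubes (5.01-fold, log2 difference 2.33, SE 0.41). The myoblast 1 spot had no flag, and its median pixel intensity was 440.0 against 149 and 148. Without myoblast 1 the difference was 2.91, and without myoblast 2 it was 1.98. The myotube signals were close together before scaling. On the log2 scale after it, the SD was 0.33 in myotubes and 1.01 in myoblasts. The size of the difference thus turns mostly on which myoblast array is taken as typical.

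Other members with wide spread in at least 1 state were dimmer. An SD above 0.5 on the log2 scale was found for 10 members in myoblasts and 6 in myotubes. The share of all probes with such an SD was not worked out. ASCRP4004639 read 6.0, 12.6 and 15.5 in myoblasts and 145, 103 and 109 in myotubes (log2 difference 2.95, SE 0.37), with the lowest myoblast and the highest myotube value both from arrays numbered 1. ASCRP4001910 read 16.6, 6.86 and 11.6 against 41.4, 87.3 and 73.2 (log2 difference 2.01, SE 0.32). ASCRP4011860 read 10.2, 16.6 and 10.4 against 107, 59.8 and 78.7 (log2 difference 2.19, SE 0.31), the highest value again on myotube 1. In all of these the lowest myotube array was above the highest myoblast array.

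Within myoblasts the members' spread was somewhat wider than that of other probes, by medians. Within myotubes it was somewhat narrower, though not for members over 50 in myoblasts. The median SD over 3 arrays was 0.26 for members and 0.20 for the other probes in myoblasts, and 0.17 and 0.20 in myotubes. By myoblast brightness, the members' median SD in myoblasts was 0.26 under 10, 0.27 from 10 to 50 and 0.31 over 50, where the other probes had 0.25, 0.21 and 0.17. In myotubes the members had 0.14, 0.18 and 0.23 in these classes, and the other probes 0.25, 0.20 and 0.19. The probes at least 4-fold lower in myotubes outside the brightest 100, 56 in number, had 0.21 in myoblasts and 0.25 in myotubes. No test was made of these spreads, since probes share the arrays and are not replicates.

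All 74 members had every myotube array above every myoblast array, as did 22.0% of the 7717 probes. In limma's fit over the 7717 probes, all 74 members were also past an adjusted p of 0.05 with Benjamini-Hochberg adjustment, where 16.8% of the probes were called higher in myotubes and 35.3% in either direction. The same contrast chose the members, so nothing is read from either count. The gap between the lowest myotube and the highest myoblast array had a median of 1.95 over members and a highest value of 5.36, and it was at least 1 for 71 members and at least 2 for 33. Over all 7717 probes 194 (2.51%) had a gap of at least 1, and a gap of at least 2 was not counted there. Nothing is read from these gaps either, for the same reason.

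The differences are also given for each myotube array. Relative to the myoblast mean, the members' median difference was 2.44 on myotube 1, 2.40 on myotube 2 and 2.35 on myotube 3. On each of the 3 all 74 members were at 1 or more. A difference of 2 or more was reached by 60 members on myotube 1, by 66 on myotube 2 and by 66 on myotube 3, and by 52 on all of them. Over the 7717 probes, 1.01%, 1.13% and 1.11% reached 2 on these arrays. Myotube 1 was the lowest myotube array for 27 members and the highest for 27. The share of all probes at 1 or more, or at 2 or more on all of these arrays, was not worked out. Each of these arrays entered the mean that chose the members. Nothing is therefore read from these counts, nor from the values by array about slide position. With slide row as a block, which leaves the difference to myotube 1, 60 of the 74 stayed at 2 or more, and limma called 1441 of the 7717 probes in place of 2725. The part of slide row in the differences was not tested.

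The members weakest on myotube 1 were ASCRP4005993, ASCRP4013636 and ASCRP4013267. ASCRP4005993 read 15.7, 24.1 and 29.0 in myoblasts and 68.3, 212 and 184 in myotubes, with a difference of 1.44 on myotube 1 and of 2.57 and 2.32 on the others. For ASCRP4013636 the signals were 11.7, 10.2 and 9.99 against 36.5, 89.4 and 72.8, and for ASCRP4013267 they were 33.2, 42.1 and 26.5 against 123, 293 and 252. Their differences on myotube 1 were 1.60 and 1.70. Each had myotube 1 below the other myotube arrays and above all myoblast arrays.

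The size of the difference depended on which set of values was used, more so for dim members. These sets differ in more than background, and the part of background treatment alone was not tested. The authors' deposited log2 values held all 74 members. There the median difference was 1.91, a 3.77-fold ratio, and it ran from 1.1 to 4.53. It was smaller than with the processed signal for 73 members, all but ASCRP4010324, and 32 members reached 2. By myoblast signal, the median deposited difference was 1.77 under 10, 1.88 from 10 to 50 and 2.38 over 50, against 2.83, 2.29 and 2.52 with the processed signal. The order of the classes thus turned, with the brightest members having the largest median difference.

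Across the 74 members the deposited difference followed the difference of the unsubtracted median pixel intensities with a Pearson correlation of 0.993, given as a description, since the values come from the same spots. A member's median pixel intensity in myoblasts was 34.9, of which local background made up 12.3 (medians over members). ASCRP4004827, for example, had median pixel intensities of 23.0, 23.0 and 23.5 in myoblasts over a local background of 12.0 to 13.5. Its deposited values were 5.02, 5.09 and 5.26 in myoblasts and 9.93, 9.68 and 9.36 in myotubes, a difference of 4.53. The deposited difference was smallest for ASCRP4001682, ASCRP4000690 and ASCRP4003217, at 1.1, 1.19 and 1.23. ASCRP4003217 read 12.0, 6.21 and 6.77 in myoblasts and 33.3, 56.7 and 64.7 in myotubes.

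After normexp background correction, which adds an offset of 50 and shrinks differences of dim spots, the median difference was 1.35 and 15 members reached 2. These 15, picked out after their values were seen, also reached 2 in the deposited values. They held 10 of the 13 members over 50 in myoblasts, all but ASCRP4003543, ASCRP4010700 and ASCRP4012507, together with ASCRP4004827, ASCRP4001861, ASCRP4002121, ASCRP4007505 and ASCRP4003093. Of the 8 members with the greatest difference, 6 were also among the 8 greatest by deposited values and 4 by normexp. Probes at least 4-fold lower in myotubes had a median difference of -2.38 with the processed signal and -1.71 in the deposited values, and 17 of the 56 stayed at -2 or below.

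None of the members' spots was saturated. Local background around them had a median of 12.3 in myoblasts and 11.9 in myotubes, and around other probes 12.3 and 11.7. They lay across the array, with 52.7% above the middle of its rows and 58.1% left of the middle of its columns, against 49.5% and 50.6% of the other probes. On the 292 neighbouring circRNA spots that were above background on all arrays the median difference was -0.01.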

How the data were processed

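The 6 one-colour arrays came as scanner tables, whose file headers name Feature Extraction 11.0.1.1. Its processed signal is a linear intensity, with background subtracted and spatial trends removed per the file headers, but without scaling between arrays. The deposited pixel and background columns are intensities in raw scanner units. The authors' deposited value table holds log2 values for 11128 circRNA probes. The sources used here do not say how these were made or which step put the arrays on 1 scale.

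Each processed signal was put on the log2 scale, and the array's own 75th percentile over circRNA probes was subtracted. Flagged spots were kept, as the rule for members does not drop them. Standard errors come from limma 3.58.1 (lmFit, eBayes; R 4.3.3), fitted over the 7717 probes above background on all arrays with no block and tested on simulated data. Spots of gene and negative probes without an outlier flag were averaged on the log2 scale, and 44 of 50 gene probes were given a symbol by RefSeq accession (table of assembly GRCm38.p6). The members, lists and rules were chosen with earlier results of these data known. Members were named by rank: the 8 with the greatest difference, the 4 with the highest average, and 3 each for dimmest in myoblasts, widest spread in either state, least on myotube 1, least in the deposited values, and nearest the bound on either side. The other members over 50 in myoblasts, ASCRP4007351 and the probes on neighbouring spots were added after their values were seen. Replicates are samples of 1 line, and errors measure the spread between 3 arrays per state, whose number limits the precision. Normexp used the median pixel signal in place of the planned mean pixel signal, which these scanner tables lack, with the median local background.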

Additional observations from a re-analysis of the deposited data

How the results depend on the processing

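The number of members was 64 under median scaling, 76 with the percentile taken over detected probes only and 70 after quantile normalization, of which 64, 74 and 69 were among the 74. It was 15 after normexp correction and 32 with the deposited values, with median differences of 1.35 and 1.91 and medians over the 23 named members of 1.37 and 2.02. Bounds of 1.5 and 2.5 gave 185 and 32. Leaving out 1 array gave 73 to 84 members, and 52 of the 74 stayed at 2 or more whichever array was left out; the median over the named members, 2.33 with all arrays, was then 2.37 to 2.91 (highest without myotube 2). With slide row as a block, and within the first row, it was 3.02, where the difference rests on myotube 1. The named members were picked by rank, so their median does not stand for all 74. Over all 74 the median on myotube 1, relative to the myoblast mean, was 2.44, against 2.35 with all arrays. The median pixel intensity, chosen after seeing the data, gave 56 members, 53 of them among the 74, and a median difference of 2.24; without ASCRP4003543 the median was 2.36. No named member changed sign under any of 17 alternatives, but members chosen at 2 or more on these same arrays could hardly do so. Nothing is read from this. Of 391 values of named members under these alternatives, 62 moved by more than the SD within states. Of those, 20 were under normexp and 18 under the deposited values. The 391 include the values with replicate number as a block, which could not move.

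Of all probes, limma called 2725. It called 1441 with slide row as a block, 1168 within the first row, and 1772 to 2920 with 1 array left out, lowest without myotube 3. The replicate number as a block gave 2531 calls, among them all 74 members, from which nothing is read since the same contrast chose them. Each number occurs once per state, so this block cannot change a difference. The median over the named members was thus 2.33 by design. Deviations of same-numbered arrays from their group means had correlations of -0.0424, 0.0328 and -0.108. Those of differently numbered arrays ran from -0.147 to 0.203. With 3 arrays per group these values are tied to each other, so they cannot show whether the numbers pair samples. Signals near background limit the ratios of dim members.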

Other observations

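The 74 members were spread over the numbering of the array design, with 24, 18, 17 and 15 in 4 successive blocks of equal size. Over 4264 pairs of consecutively numbered probes above background on all arrays, the differences between states had a Pearson correlation of 0.0148, given as a description. Of the members, 3 pairs lay within 10 numbers of each other: ASCRP4003543 with ASCRP4003550, ASCRP4007350 with ASCRP4007352, and ASCRP4011941 with ASCRP4011950. How many such pairs other sets of this size would hold was not worked out, so nothing is read from the count. Whether the members of a pair come from the same gene is not known from the files used here.

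On the array itself 2 pairs of members lay on neighbouring spots, and both hold a probe with 1 of the greatest differences. ASCRP4003550, beside ASCRP4004827, read 46.4, 55.8 and 40.6 in myoblasts and 327, 472 and 423 in myotubes. ASCRP4000302, beside ASCRP4007350, read 38.6, 31.9 and 30.4 in myoblasts and 139.6, 305 and 217 in myotubes. Whether signal of one spot reached the other was not tested. How many such pairs a set of this size would hold anywhere on the array was not worked out, so nothing is read from their number.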
